A study of Mus musculus with 6 samples.

Results

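The expression of the 10 receptor genes through which WNT proteins are read at the cell surface was examined in cultured mouse mammary epithelial cells and in tumor cell lines. The set comprised 8 Frizzled genes (Fzd1 to Fzd8) and the 2 LRP co-receptor genes (Lrp5 and Lrp6), chosen by symbol from 37753 entries with expression values, and each symbol was on 1 entry. The 6 RNA-seq libraries stand for 3 primary cultures of mammary epithelial cells (MEC) and 3 tumor cell lines (ME-KO lines 199, 233 and 336). MEC carried a Wap-Cre transgene alone and were pooled from 3 to 5 virgin females aged 10 to 12 weeks, of the strain given as C57/Bl6J. The ME-KO lines were grown from breast tumors of mice that carried Wap-Cre and LoxP-flanked alleles of Mapk8 and Mapk9. These genes encode the kinases JNK1 and JNK2, and the flanked alleles are deleted in cells that express Cre. The Wap promoter is most active in luminal cells of the pregnant and lactating gland, so that Cre reaches part of the epithelium. MEC were harvested as primary cultures on collagen I, and the ME-KO cells were passaged 2 times on collagen I, moved to standard dishes and grown until lines were established. Loss of JNK, parity, origin in a tumor and length of culture changed together and cannot be told apart. The tumor-bearing mice had been through pregnancy, and the labels give no age for them.

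Frizzled proteins span the membrane repeatedly and bind WNT proteins through an extracellular cysteine-rich domain. When a WNT protein joins a Frizzled to LRP5 or LRP6, the complex recruits Dishevelled and Axin, beta-catenin escapes degradation and TCF/LEF factors are activated. Without an LRP partner, Frizzleds also signal to the cytoskeleton and set the planar polarity of epithelial sheets, and in the mammary gland WNT signaling maintains stem cells and drives the branching of ducts.

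Expression is given as FPKM, fragment counts scaled by transcript length and library size, which allows levels to be compared between genes. Tests were made with limma on log2(FPKM + 1) over the 12461 entries with a mean of at least 1 FPKM, and a gene was called with a Benjamini-Hochberg adjusted p under 0.05 and a log2 fold change beyond 0.75 in either direction. Fold changes on this scale understate the change of genes with low levels. All 10 receptors passed the filter, although the ME-KO means of Fzd3 and Fzd4 were under 1 FPKM and these 2 genes passed because of their MEC levels. Mapk8 was between 19.2 and 25.1 FPKM in MEC and between 1.37 and 5.93 FPKM in ME-KO, and Mapk9 was between 21.5 and 24.4 FPKM and between 3.07 and 7.62 FPKM, with both called lower. Among luminal markers, 5 of 6 were called lower in ME-KO, against 7.26% of all tested genes, with a summed level of 5352 to 8902 FPKM in MEC and 789 to 1962 FPKM in ME-KO, and Krt8 was still at 230 FPKM or more in each line whereas Elf5 was at 0.461 FPKM or less.

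Most receptors had lower levels in ME-KO cells, and the largest differences were among Frizzleds. The log2 fold change was below 0 for 9 of the 10 receptors, against 48.8% of all tested genes, and its median was -0.96 against 0.01 for all tested genes. For 8 receptors the ME-KO values all lay below the lowest MEC value, which held for 18.7% of all tested genes. For none did they all lie above the highest MEC value, against 18.5% of all tested genes. Over all receptors and other entries, 1234 genes were called, 9.9% of those tested. Fzd3, Fzd4 and Fzd5 were called lower, against 7.26% of all tested genes, and none was called higher, against 2.64%. At an unadjusted p under 0.05, 6 receptors were lower and none was higher, where 28.2% of all tested genes passed at that level and 15.7% did so with a lower value. The exact permutation test (two-sided) of a single receptor has a smallest possible p of 0.1 with 3 libraries against 3. Any gene whose groups do not overlap reaches it, as the 8 receptors did, so this test adds nothing to that count.

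**Figure D1:**
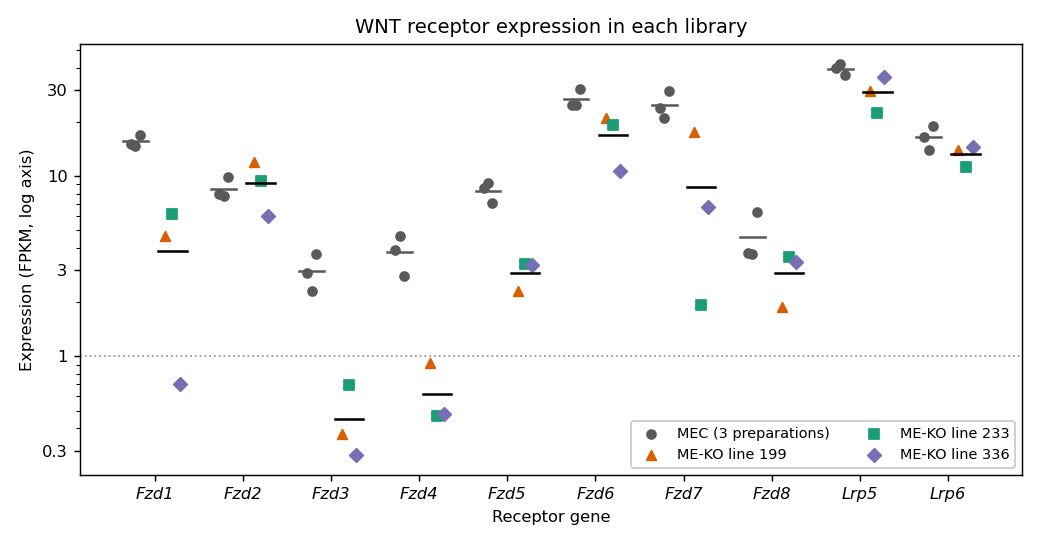
Expression of each receptor in each library, in FPKM on a log axis. Circles are the 3 MEC preparations, other symbols the 3 ME-KO lines, short bars the group means, and the dotted line marks 1 FPKM. The ME-KO symbols of Fzd1, Fzd3, Fzd4 and Fzd5 sit well below the MEC circles, whereas those of Fzd2 and Lrp6 overlap them.

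Fzd4 encodes a receptor of canonical WNT signals and of norrin, a ligand unrelated to WNT proteins. Its level was 3.90, 4.62 and 2.78 FPKM in MEC 1, 2 and 3 and 0.913, 0.468 and 0.481 FPKM in lines 199, 233 and 336. All 3 lines were under 1 FPKM and the groups did not overlap. The ME-KO mean was 16.5% of the MEC mean, with a log2 fold change of -1.55 ± 0.25 (SE, n = 3 against 3; limma adjusted p = 0.0166). Tspan12, a tetraspanin that joins FZD4 in the norrin receptor, was 16.4, 16.4 and 20.2 FPKM in MEC and 1.76, 1.55 and 0.477 FPKM in the lines. It was called lower as well, with a log2 fold change of -3.09 ± 0.28 (SE; limma adjusted p = 0.00273). Ndp, which encodes norrin and was named after its values were seen, was at most 0.347 FPKM in any library and was not tested. Endothelial cells are known for this receptor, and the summed level of 6 endothelial markers was 18.9, 22.5 and 2.45 FPKM in MEC 1, 2 and 3 and between 0.209 and 2.06 FPKM in the lines. MEC 3, in which those markers were lowest, also had the lowest Fzd4 level among MEC. The summed levels of luminal, basal or myoepithelial, fibroblast and adipocyte markers were lowest in MEC 3 as well. Immune markers and Tspan12 were highest there, so the low level was not particular to endothelial markers. The part of endothelial cells in the Fzd4 result was not tested. In bulk RNA, fewer cells of a type and less RNA per cell cannot be told apart.

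Fzd5, a close relative of Fzd8 that acts mainly through beta-catenin, was 8.53, 9.16 and 7.08 FPKM in MEC and 2.31, 3.24 and 3.20 FPKM in lines 199, 233 and 336. The lines lay close together, and the groups did not overlap. The log2 fold change was -1.25 ± 0.19 (SE; limma adjusted p = 0.0150), and the ME-KO mean was 35.3% of the MEC mean. Fzd8 was 3.74, 3.69 and 6.36 FPKM in MEC and 1.87, 3.53 and 3.32 FPKM in the lines. Its highest line, 233, lay just below MEC 2, and the log2 fold change of -0.51 had a 95% confidence interval of -1.21 to 0.18 (limma adjusted p = 0.292). Thus of this pair, Fzd5 was called and Fzd8 was not, and the difference between the genes was not tested.

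Fzd3 and Fzd6 form the branch best known for planar polarity, with Fzd3 required for the growth of axon tracts and Fzd6 for the alignment of hairs. Fzd3 was 2.91, 2.29 and 3.70 FPKM in MEC and 0.371, 0.692 and 0.283 FPKM in the lines. Every line was under 1 FPKM, the groups did not overlap, and the log2 fold change was -1.45 ± 0.25 (SE; limma adjusted p = 0.0198). Fzd6 was far more abundant, with 24.7, 24.8 and 30.4 FPKM in MEC and 21.0, 19.2 and 10.7 FPKM in the lines. The lines were all lower, most in line 336, and the log2 fold change of -0.67 ± 0.27 (SE) did not pass the test (limma adjusted p = 0.168). Fzd6 was 8.22 to 10.8 times as abundant as Fzd3 in MEC and 27.7 to 56.6 times in ME-KO, ranges that did not overlap.

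The calls of Fzd3, Fzd4 and Fzd5 depended on the MEC libraries. Without MEC 1 or without MEC 2 none of them was called (limma adjusted p between 0.0582 and 0.0885), and without MEC 3 Fzd4 and Fzd5 were called and Fzd3 was not (limma adjusted p = 0.0560). Fewer genes were called in the whole table as well, 300 without MEC 1 and 336 without MEC 2, against 1234 with all libraries. The log2 fold changes themselves stayed between -1.71 and -1.13 for the 3 receptors whichever library was left out, and all 3 were called without line 199, without line 233 and without line 336.

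Fzd1, Fzd2 and Fzd7 form a branch with similar protein sequences. Fzd7 is known as a receptor of mammary stem and basal cells, and Fzd1 and Fzd2 are widely expressed. Fzd1 was 15.1, 14.7 and 16.9 FPKM in MEC and 4.64, 6.13 and 0.698 FPKM in lines 199, 233 and 336. All lines were lower, and line 336 held 4.48% of the MEC mean where line 233 held 39.4%. The log2 fold change of -2.02 ± 0.53 (SE), did not pass the adjusted threshold (limma adjusted p = 0.0614), and it passed without line 336 (-1.38, limma adjusted p = 0.0215). Fzd7 was 23.9, 20.9 and 29.5 FPKM in MEC and 17.5, 1.92 and 6.76 FPKM in the lines. Line 199 was close to MEC 2, whereas line 233 held 7.76% of the MEC mean. Across all lines the log2 fold change was -1.77 ± 0.63 (SE; limma adjusted p = 0.132), and without line 199 it was -2.42 and passed (limma adjusted p = 0.0235).

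Line 199, which had the highest Fzd7 level of the lines, also had the highest levels of basal markers among them. The summed level of 6 basal or myoepithelial markers was 2116, 2312 and 1304 FPKM in MEC, 1882 FPKM in line 199, and 9.91 and 45.1 FPKM in lines 233 and 336. In line 199 this sum came mostly from Krt5 (608 FPKM), Krt14 (521 FPKM) and Acta2 (719 FPKM). Krt5, Krt14 and Trp63 (15.6 FPKM, against 7.94 to 11.3 FPKM in MEC) were above every MEC library there. Acta2 (against 736 to 1452 FPKM in MEC) was below every MEC library. So were the smooth muscle genes Myh11 (0.0812 FPKM, against 22.4 to 41.8 FPKM) and Cnn1 (16.8 FPKM, against 47.6 to 75.0 FPKM). Of 7 fibroblast markers, the summed level was 1092 FPKM in line 199, 115 to 196 FPKM in MEC and 2.41 and 1.83 FPKM in lines 233 and 336. Most of the sum in line 199 was Col1a1 (600 FPKM) and Col1a2 (408 FPKM), both above every MEC library. Col3a1 (71.5 FPKM, against 16.5 to 57.6 FPKM in MEC) and Pdgfra (1.31 FPKM, against 0.686 to 0.949 FPKM) were above as well. Dcn, Lum and Thy1 were lower there than in any MEC library. The part of the basal and fibroblast markers in the Fzd7 difference between lines was not tested.

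Fzd2 was the exception among the receptors, with 7.98, 7.76 and 9.82 FPKM in MEC and 12.0, 9.41 and 6.02 FPKM in lines 199, 233 and 336. Line 199 was above every MEC library, line 233 lay within their range and line 336 was below it. The log2 fold change of 0.05 had a 95% confidence interval of -0.57 to 0.68 (limma adjusted p = 0.913). Its sign turned without line 199 (-0.15) and without MEC 2 (-0.003).

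Lrp5 and Lrp6 encode the co-receptors that carry the WNT signal to Axin. Lrp5 was 39.7, 42.1 and 36.4 FPKM in MEC and 29.5, 22.4 and 35.4 FPKM in the lines. The groups did not overlap, but line 336 was close to MEC 3, and the log2 fold change of -0.45 had a 95% confidence interval of -0.92 to 0.03 (limma adjusted p = 0.199). Lrp6 was 16.4, 14.0 and 19.0 FPKM in MEC and 14.0, 11.2 and 14.4 FPKM in the lines. The groups overlapped, with an exact permutation p of 0.2 (two-sided) and a log2 fold change of -0.30 (95% confidence interval -0.74 to 0.14; limma adjusted p = 0.327). The ratio of Lrp5 to Lrp6 was 1.92 to 3.01 in MEC and 2.01 to 2.46 in ME-KO, with overlapping ranges. Of 8 tested relatives in the LDL receptor family that were not WNT co-receptors, none was called, against 9.9% of all tested genes. Their median log2 fold change was -0.04.

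The order of receptors by level was set by the same genes at the top of both groups. Lrp5 was the most abundant receptor in either group, above 81.8% of tested genes in MEC, and Fzd6 had the highest mean among Frizzleds, although the ranges of Fzd6 and Fzd7 overlapped in MEC and those of Fzd6 and Lrp6 overlapped in ME-KO. Lrp6 and Fzd1 followed in MEC with overlapping ranges, as did Fzd2 and Fzd5 below them. Fzd8, Fzd4 and Fzd3 were the lowest, and each overlapped the next in this order. In ME-KO the ranges of neighbours overlapped from Fzd6 down to Fzd8, whereas Fzd4 and Fzd3 lay apart below Fzd8, though Fzd1 was as low in line 336. Fzd4 was at 0.621 ± 0.253 FPKM and Fzd3 at 0.448 ± 0.216 FPKM (mean ± SD, n = 3).

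The summed level of the 8 Frizzleds was 90.8, 87.9 and 107 FPKM in MEC and 60.6, 44.6 and 31.4 FPKM in lines 199, 233 and 336. Each line thus held less Frizzled RNA than any MEC library. The summed level of both LRP genes was 56.1, 56.1 and 55.4 FPKM in MEC and 43.5, 33.6 and 49.9 FPKM in the lines. The ratio of LRP to Frizzled was 0.520 to 0.638 in MEC and 0.717 to 1.59 in ME-KO, and line 336 was the only library in which LRP RNA exceeded Frizzled RNA.

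**Figure D2:**
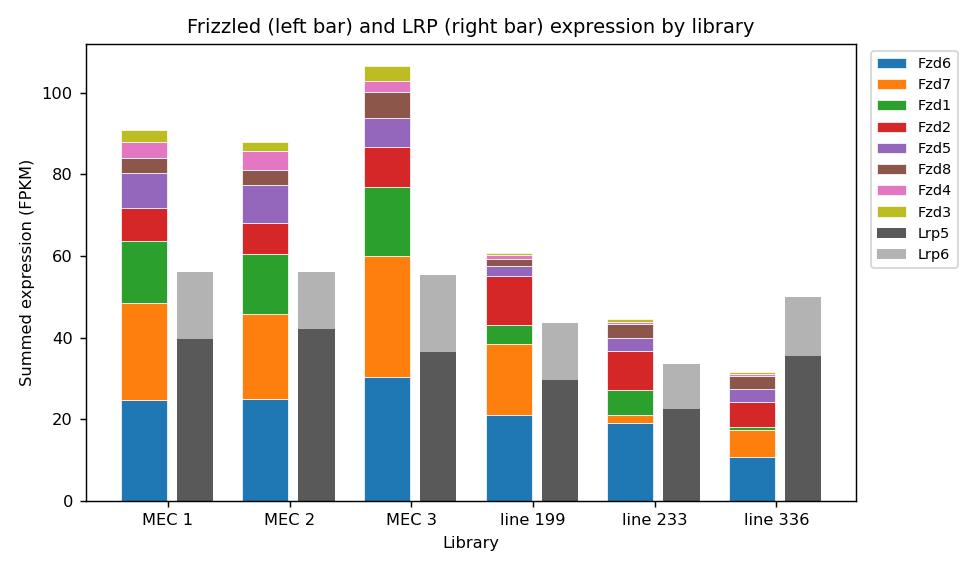
Summed FPKM of the 8 Frizzleds (left bar) and of Lrp5 and Lrp6 (right bar) in each library, divided by gene. The Frizzled bar reaches 87.9 to 107 FPKM in MEC and 31.4 to 60.6 FPKM in the lines, and the LRP bar 55.4 to 56.1 FPKM and 33.6 to 49.9 FPKM.

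The makeup of the Frizzled RNA shifted with the sum. Fzd2 made up 8.79% to 9.22% of it in MEC and 19.2% to 21.1% in ME-KO, while its own level overlapped between the groups. Fzd6 made up 27.2% to 28.5% in MEC and 34.0% to 43.0% in ME-KO. The share of Fzd1 was 15.9% to 16.7% in MEC and 2.22% to 13.8% in ME-KO, and that of Fzd4 was 2.61% to 5.26% and 1.05% to 1.53%. The share of Fzd3 was 2.6% to 3.47% in MEC and 0.611% to 1.55% in ME-KO. Ranges of these shares did not overlap between groups, whereas those of Fzd5, Fzd7 and Fzd8 did. The share of Fzd7 was 23.8% to 27.7% in MEC and 28.9%, 4.31% and 21.5% in lines 199, 233 and 336. Fzd6 led in every library and Fzd7 came next in 5 of 6, line 233 being the exception, where Fzd2 came next. All 8 Frizzleds reached 1 FPKM in each MEC library, whereas 6, 6 and 5 did so in lines 199, 233 and 336.

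Each line was also compared with the 3 MEC libraries on its own. With 1 library per line, the line is assumed to vary as MEC do, and no spread within a line was measured. In each line 9 of the 10 receptors lay below the lowest MEC value, as 39.1%, 37.9% and 37.4% of all tested genes did in lines 199, 233 and 336. In line 199, Fzd1, Fzd3 and Fzd5 were called lower, against 7.94% of all tested genes. In line 233, Fzd1, Fzd4, Fzd5, Fzd7 and Lrp5 were called lower, against 10.3%. In line 336, Fzd1, Fzd3, Fzd4, Fzd5, Fzd6 and Fzd7 were called lower, against 11.1%. No receptor was called higher in any line, against 5.04%, 5.06% and 5.85% of all tested genes. Fzd1 and Fzd5 were called lower in each line, as were 3.71% of all tested genes. These calls too depended on the MEC libraries, since without MEC 1 no receptor was called in any line and without MEC 2 the only calls were Fzd7 in line 233 and Fzd1 in line 336.

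The lines were furthest apart in Fzd1 and Fzd7. The log2 fold change of Fzd1 against MEC was -1.55, -1.21 and -3.29 for lines 199, 233 and 336. The corresponding values of Fzd7 were -0.46, -3.13 and -1.72. Fzd6 was called in line 336 alone (-1.24, limma adjusted p = 0.0275), with -0.32 and -0.45 in lines 199 and 233. In contrast, Fzd5 varied from -1.48 to -1.12 and Fzd4 from -1.68 to -1.30. Differences between single lines have no replicate check.

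**Figure D3:**
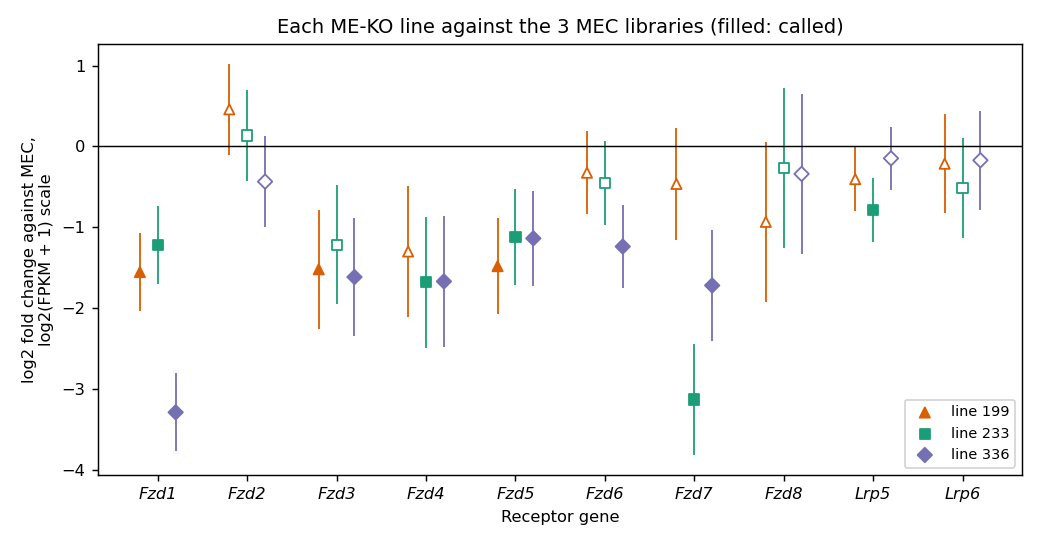
Log2 fold change of each receptor in each ME-KO line against the 3 MEC libraries, on the log2(FPKM + 1) scale, with 95% confidence intervals from limma that take a line to vary as MEC do. Filled symbols were called. Fzd1 and Fzd5 are filled in all 3 lines, and the lines spread widely for Fzd1 and Fzd7.

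Promoter sequences of the receptors were looked up in RefSeq tables on GRCm38.p6, and 4 of the 10 receptors matched. The 250 bases before the RefSeq start site are shown for all 4 that matched, Fzd4, Fzd5, Fzd1 and Fzd7. These genes include 2 that were called lower and the pair that differed most between lines. Fzd3, also called lower, was not among the matches. The windows are chr7:89404116-89404365 on the plus strand for Fzd4, chr1:64737751-64738000 on the minus strand for Fzd5, chr5:4758217-4758466 on the minus strand for Fzd1 and chr1:59481897-59482146 on the plus strand for Fzd7. Capitals mark matches, on either strand, to GGGCGG, the GC box bound by SP factors, and to TATAAA, the letters of a TATA box.
Fzd4: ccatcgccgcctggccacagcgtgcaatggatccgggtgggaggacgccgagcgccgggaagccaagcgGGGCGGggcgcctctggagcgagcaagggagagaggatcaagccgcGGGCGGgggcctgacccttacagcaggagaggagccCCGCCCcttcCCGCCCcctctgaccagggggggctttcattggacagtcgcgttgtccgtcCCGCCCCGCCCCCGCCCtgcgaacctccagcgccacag
Fzd5: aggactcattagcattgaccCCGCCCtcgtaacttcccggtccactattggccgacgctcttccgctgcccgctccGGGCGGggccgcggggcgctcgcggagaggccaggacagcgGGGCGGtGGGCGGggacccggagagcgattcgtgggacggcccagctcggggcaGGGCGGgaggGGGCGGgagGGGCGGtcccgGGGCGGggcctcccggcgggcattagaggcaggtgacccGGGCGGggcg
Fzd1: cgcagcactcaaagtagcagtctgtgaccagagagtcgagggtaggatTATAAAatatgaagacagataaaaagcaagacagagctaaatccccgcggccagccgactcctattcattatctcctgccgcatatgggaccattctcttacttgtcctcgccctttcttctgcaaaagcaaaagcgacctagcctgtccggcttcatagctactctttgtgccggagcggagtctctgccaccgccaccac
Fzd7: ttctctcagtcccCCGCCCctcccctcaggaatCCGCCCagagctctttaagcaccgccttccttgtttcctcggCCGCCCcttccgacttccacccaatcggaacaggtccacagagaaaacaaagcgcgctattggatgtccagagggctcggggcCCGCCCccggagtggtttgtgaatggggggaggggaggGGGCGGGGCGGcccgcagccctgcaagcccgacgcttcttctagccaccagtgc
GC boxes, some of which overlap each other, were found 7 times in Fzd4, 9 times in Fzd5 and 6 times in Fzd7, and none was found in Fzd1. At least 1 GC box was present in 32.7% of 32851 promoters, and 0.411%, 0.0731% and 0.886% of them held as many as Fzd4, Fzd5 and Fzd7 did. The GC content was 72.8%, 76.4%, 51.2% and 65.2% for Fzd4, Fzd5, Fzd1 and Fzd7, against a median of 52.4%. Fzd1 alone held TATAAA, which 12.4% of promoters had, and the match began 202 bases before the start site, far upstream of where a TATA box usually lies. The AP1 motif TGANTCA, of interest because JNK phosphorylates the AP1 subunit JUN, was in none of the 4 windows and in 6.75% of all. The TCF/LEF motif CTTTGNT was found in Fzd7 alone and in 16% of all. The CCAAT box (CCAAT), found in 33.8% of all, matched 1 time in Fzd4, 1 time in Fzd5 and 2 times in Fzd7, and was not found in Fzd1. All motifs were searched on both strands.

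In GENCODE annotation on GRCm38, Fzd1 (chr5:4753839-4758035, minus strand), Fzd2 (chr11:102604396-102608058, plus strand) and Fzd7 (chr1:59482424-59486955, plus strand) are genes of a single exon, and 1.61%, 1.90% and 0.777% of their 31-base words are shared among them. Fzd4 (chr7:89404355-89413134, plus strand) and Fzd5 (chr1:64730558-64737751, minus strand) have 2 exons. Fzd3 (chr14:65192449-65262463, minus strand) and Fzd6 (chr15:39006034-39038188, plus strand) have 7, and Lrp5 (chr19:3584828-3686564, minus strand) and Lrp6 (chr6:134446476-134566965, minus strand) have up to 23. Fzd5 shares 17.2% of its 31-base words with other genes, mainly the overlapping gene Gm38058 on the opposite strand. Whether counting used strand is not given in the sources used here, so reads of the overlapping pair cannot be told apart. Fzd6 overlaps Gm26704 on the opposite strand, which was at or under 0.148 FPKM in every library.

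Genes beside the receptors on the chromosome were compared as a description, with up to 10 tested coding genes taken on either side. The 20 genes around Fzd3 had a median log2 ratio to MEC of -0.85, -0.44 and -0.89 in lines 199, 233 and 336. Of these neighbours, 5 were called lower, against 7.26% of all tested genes. The 20 around Lrp6 also held 5 called lower and 3 called higher, the latter against 2.64% of all tested genes. Their median log2 fold change was 0.26. Those around Fzd4 had medians of -0.38, -0.31 and -0.45, with 3 called lower and 1 called higher. The medians around Fzd1 (19 genes) were 0.04, 0.44 and 0.40, and those around Fzd7 were -0.01, 0.18 and 0.40. Around these receptors no neighbour was called lower, and 4 and 2 were called higher, against 2.64% of all tested genes. Around Fzd5 the medians were -0.07, -0.14 and 0.15, with 2 neighbours called lower and none called higher. The part of the chromosomal surroundings in the receptor levels was not tested.

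Among the other receptors of WNT proteins, 7 of 9 listed in the table were tested. Gpr124 was called higher, against 2.64% of all tested genes, and Tspan12 was called lower, against 7.26%. Gpr124 encodes a receptor that works with RECK in WNT7 signaling. Gpr124 was 1.98, 3.05 and 1.36 FPKM in MEC and 15.1, 4.97 and 13.0 FPKM in the lines (log2 fold change 1.85 ± 0.42, limma adjusted p = 0.0433). Reck, named after its values were seen, was below the filter. Its level was 0.829, 0.941 and 1.93 FPKM in MEC and 0.375, 0.169 and 1.71 FPKM in the lines, with overlapping groups. Wnt7b was 47.1, 47.4 and 64.4 FPKM in MEC and 47.1, 140 and 115 FPKM in the lines, and did not pass the test (limma adjusted p = 0.261). Fzd9 and Fzd10 were below the filter. Fzd9 was at most 0.126 FPKM in MEC and between 0.393 and 0.935 FPKM in the lines, and Fzd10 was at most 0.810 FPKM in any library. Fzd9 was thus higher in every line, at a level under 1 FPKM.

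Of 4 tested genes for receptor turnover and R-spondin receptors, Rnf43 and Lgr6 were called lower and none was called higher, against 7.26% and 2.64% of all tested genes. Rnf43, a ubiquitin ligase that removes Frizzleds from the cell surface, was 4.17, 4.17 and 3.88 FPKM in MEC and 1.10, 2.00 and 1.41 FPKM in the lines (log2 fold change -1.03 ± 0.21, limma adjusted p = 0.0327). Its paralog Znrf3 was 3.61, 4.07 and 3.01 FPKM in MEC and 7.63, 5.01 and 5.08 FPKM in the lines. Every line was above every MEC library in Znrf3, without passing the test (log2 fold change 0.58 ± 0.22, limma adjusted p = 0.147). Lgr6, a receptor of R-spondins, had a log2 fold change of -3.62 ± 0.28 (limma adjusted p = 0.00168). Lgr4, another R-spondin receptor, had 14.7, 12.4 and 34.8 FPKM in MEC and 14.7, 3.33 and 20.9 FPKM in the lines, with overlapping groups.

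In other lists a few genes were called. Over all tested genes 7.26% were called lower and 2.64% higher, so that 73.3% of all calls were lower. Of 8 tested WNT ligands, Wnt10a was called higher (3.93 on the log2 scale, limma adjusted p = 0.00833), and Wnt5a, Wnt5b and Wnt11, ligands best known for signals without beta-catenin, were called lower, with log2 fold changes of -2.50, -4.68 and -4.13. Of 7 tested inhibitors, Dkk2, Dkk3, Sfrp2 and Sostdc1 were called lower (from -4.11 for Dkk3 to -2.02 for Dkk2) and none higher. DKK2 and SOSTDC1 bind LRP co-receptors, and SFRP2 binds WNT proteins outside the cell. The ME-KO means of Dkk2, Sfrp2, Sostdc1, Wnt5b and Shisa2 were under 1 FPKM (0.0466 to 0.562 FPKM), so these genes passed the filter because of their MEC levels. Single genes were called lower among polarity proteins (Celsr2, 1 of 5 tested, -2.71), heparan sulfate co-receptors (Sdc4, 1 of 6 tested, -1.30), secretion and folding genes (Shisa2, which holds Frizzleds in the endoplasmic reticulum, 1 of 5 tested, -1.81), cytoplasmic transducers (Nkd2, 1 of 19 tested, -2.73) and TCF factors (Tcf7, 1 of 10 tested, -1.06), and none was called higher. Cytoplasmic transducers had a median log2 fold change of 0.06, close to that of all tested genes. Ctnnb1, which encodes beta-catenin, was 233 to 303 FPKM in MEC and 135 to 334 FPKM in the lines, with overlapping groups. The feedback target Axin2 was 0.550, 0.699 and 0.935 FPKM in MEC and 1.79, 10.7 and 11.3 FPKM in the lines, all above MEC, without passing the test (log2 fold change 2.10 ± 0.59, limma adjusted p = 0.0731).

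**Figure D4:**
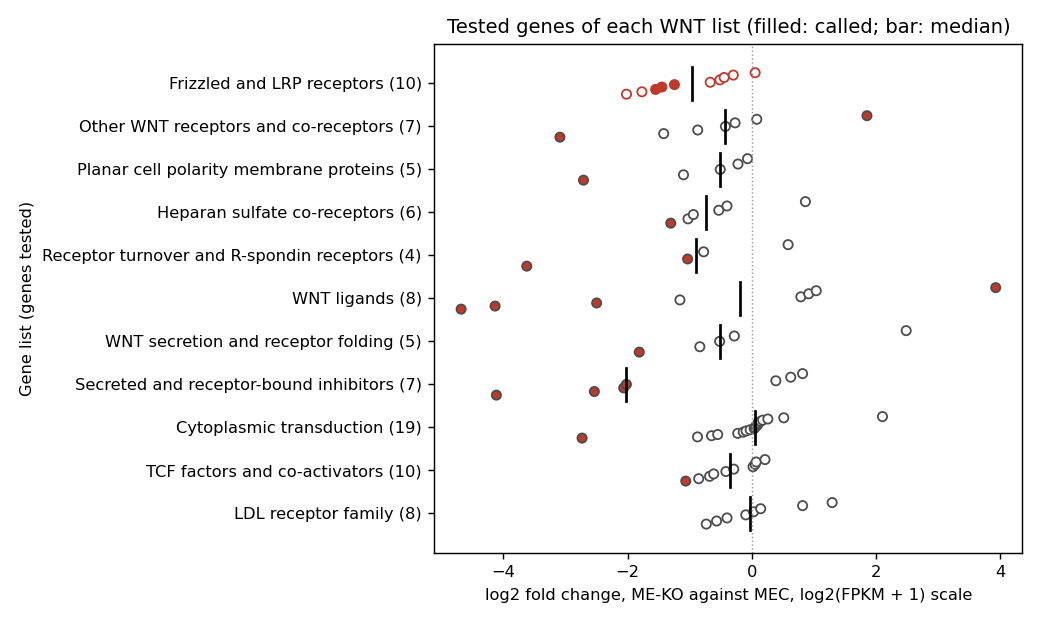
Log2 fold change, ME-KO against MEC, of each tested gene in the WNT lists, on the log2(FPKM + 1) scale. Each circle is 1 gene, filled circles were called, and the bar is the list's median. The Frizzled and LRP receptors have a median of -0.96, the cytoplasmic transducers one of 0.06.

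The genes whose pattern was most like that of the called receptors over the 6 libraries were found by the correlation of log2(FPKM + 1), given as a description in libraries that share the group difference. For Fzd3 they were Bend7 and Pde5a (Pearson r = 0.997 each), for Fzd4 they were Las1l (0.999) and Pf4 (0.998), and for Fzd5 they were Krt19 (0.998), a luminal keratin, and Tspan1 (0.996). Krt19 was 804, 1057 and 356 FPKM in MEC and 7.93, 26.8 and 17.6 FPKM in the lines.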

How the data were processed

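The data were 6 RNA-seq libraries, 3 of MEC and 3 of ME-KO lines. The authors trimmed the reads with Trimmomatic, aligned them to the mouse genome with Bowtie2 and TopHat2 2.0.14 and quantified genes with Cufflinks 2.2.1 on GRCm38, and the deposited table holds FPKM values, which the authors had scaled by length of transcript and by size of library. Of 37755 entries, 2 had no values. Summed FPKM was 557991 to 638365 per library. FPKM values carry no read numbers, so absolute depth is unknown and no counting interval was computed. Depth relative to MEC 1, read from the smallest values, was 0.92 to 1.00 in MEC and 1.07 to 1.30 in the lines. Nothing in the sources used here names a sequencing batch.

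The receptors, gene lists and tests were chosen with earlier results of these data known. Entries were fitted in R 4.3.3 with limma 3.58.1 on log2(FPKM + 1) with a mean-variance trend, after a filter at a mean of 1 FPKM, and adjusted over all 12461 tested genes, and the procedure was tested on simulated data. Lines were also fitted as separate groups. Named genes were the 10 receptors, Mapk8 and Mapk9, up to 5 called genes of each list by size of change, the 2 best correlated entries of each called receptor, and 9 reference genes of the pathway. Counting tools were not used, since they need reads. Each library comes from a separate preparation or line, so p-values of the group comparison reflect the spread between them. Those of single lines against MEC rest on the spread between MEC libraries alone.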

Additional observations from a re-analysis of the deposited data

How the results depend on the processing

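No paired analysis was possible because the groups share no replicate numbers.

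The counts of genes were recomputed with other settings. With all libraries, 1234 genes were called, against 738 with a filter at a mean of 5 FPKM (3 receptors are then untested) and 1978 with sample weights, whose estimate did not converge, and between 300 and 1886 when a library was left out. Receptors called lower were 3, against 1 (Fzd5) with the filter at 5 FPKM, 5 (Fzd1, Fzd3, Fzd4, Fzd5 and Fzd7) with sample weights, and 0 to 4 when a library was left out. None was called higher under any setting. With quantile normalization the 3 were Fzd1, Fzd4 and Fzd5, and 62.1% of called genes were lower, against 73.3% as reported. In line 199 the count was 3, against 1 without the expression filter and 0 to 4 without a MEC library. In line 233 it was 5, against 2 without the expression filter, 3 with quantile normalization and 0 to 6 without a MEC library. In line 336 it was 6, against 1 without the filter, 3 with quantile normalization and 0 to 6 without a MEC library. The settings without a MEC library in the comparison of single lines were chosen after seeing the data. The log2 fold change of Fzd2 turned negative without MEC 2 (-0.003) and without line 199 (-0.15), with a range of -0.15 to 0.30 over the libraries left out, and no other receptor changed sign under any setting. The cause of these shifts was not tested beyond the genes and samples that each setting leaves out.

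With 3 libraries a group and 1 per line, receptors near the threshold cannot be placed firmly on either side of it. Low FPKM values, as for Fzd3 and Fzd4 in ME-KO, are the least precise.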
